A study of Mus musculus with 9 samples.

Results

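Histone lysine methylation is written by methyltransferases and removed by demethylases. From these enzyme families, with 2 core subunits, 46 genes were followed here in differentiated C2C12 muscle fibres. The genes were named from families known for this chemistry, with earlier results of these data known; no measured value enters the rule. They were grouped as 30 writers and 16 erasers among the 24063 gene symbols of the deposited tables, and all 46 passed the filter on low counts. Writer is a group name here. It takes in the subunits Eed and Suz12, the actin histidine methyltransferase Setd3, and Kmt2e, whose catalytic domain is held to be inactive. For genes with several transcripts, the one with the highest mean count stood for the gene.

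C2C12 is an established clonal mouse myoblast line that leaves the cell cycle and fuses into multinucleated fibres in low serum. The cells of all 3 groups are wild type, were kept for differentiation in DMEM plus 2% FBS (fetal bovine serum) and carry the time label day 3. The control group had normal medium. For 1C-MIM, short for One-Carbon Metabolite Induced Medium, 6 metabolites of the one-carbon network were added, and for scramble 6 metabolites that do not belong to it. Each group has 3 RNA sequencing libraries, of 29.0 to 33.2 M counts with 1 transcript per gene. Separate cultures per library are not mentioned in the labels, so each p-value reflects the spread among these libraries alone, and that spread may be technical. All come from 1 clonal line. The sources used here do not give the metabolites' names or doses.

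Methyltransferases of the SET family, and DOT1L with its different fold, take the methyl group from S-adenosylmethionine, which the methionine cycle of one-carbon metabolism supplies. JmjC demethylases use oxygen, iron and 2-oxoglutarate, whereas KDM1A and KDM1B use a flavin. Methylation of histone H3 at lysines 4, 36 and 79 (H3K4, H3K36, H3K79) is known from active genes, and at lysines 9 and 27 (H3K9, H3K27) from silent ones. In muscle, H3K27 methylation by Polycomb complex PRC2 and H3K9 methylation are known to hold muscle genes silent in myoblasts.

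The label of differentiated muscle was checked against marker genes, in CPM, which scale counts to the normalized library size. The 12 differentiated muscle markers, among them Myog, Acta1 and Ttn, had sums of 5501 to 10760 CPM in control libraries, 8860 to 10980 in those of 1C-MIM and 6422 to 9298 in those of scramble. RNA of myoblast genes was present as well: 8 markers summed to 787 to 911 CPM in control, 838 to 869 in 1C-MIM and 833 to 879 in scramble. Against control, Pax7, Myod1 and Vcam1 were called higher in 1C-MIM, and Id1, Id3, Cd34 and Ccnd1 lower. Myf5 was called in neither comparison, and Id3 was not called against scramble. Sums of 8 blood cell markers were 2.83 to 4.30 CPM over the 9 libraries, with Adgre1, Cd3e and Hbb-bs at 0 in every library. The 8 fibroblast and endothelial markers summed to 75.1 to 79.4 CPM in control libraries, 128 to 148 in those of 1C-MIM and 81.4 to 87.2 in those of scramble. All 4 that passed the filter were called higher in 1C-MIM in both comparisons, by log2 fold changes against control of 0.84 ± 0.06 (SE) for Pdgfra, 1.20 ± 0.22 for Dpt, 1.67 ± 0.23 for Pi16 and 1.63 ± 0.32 for the endothelial gene Tek. Pdgfra made up most of the sum, at 71.9 ± 2.1 CPM (SD, n = 3) in control and 129 ± 8.8 in 1C-MIM, while Tek had 0.299 ± 0.10 and 0.928 ± 0.16 CPM. The other 4, Thy1, Pecam1, Cdh5 and Kdr, were untested and near 0. The part of these genes in the results below was not tested. Control replicate 1 stood apart from the other controls. Its muscle marker sum was 10760 CPM against 6180 and 5501, and its sum of 12 mitosis markers was 1652 CPM against 2172 and 2151. Replicate 1 also had the highest muscle marker sum in scramble (9298 CPM against 6422 and 6576) and in 1C-MIM (10980 against 9315 and 8860). Its mitosis marker sum was the lowest in scramble (1788 CPM against 2135 and 2138) but the highest in 1C-MIM (1035 against 957 and 849). Members whose call changed without control replicate 1 are named below, and the fold change without that library is given for some members only. In bulk RNA, fewer cells of a type and less RNA per cell cannot be told apart.

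A pair of marker groups moved together with 1C-MIM. All 12 mitosis markers, such as Mki67 and Top2a, were called lower against control and against scramble, and their sums were 849 to 1035 CPM with 1C-MIM, 1652 to 2172 with normal medium and 1788 to 2138 with scramble. All 12 hypoxia targets, such as Pdk1 and Bnip3, were called lower against control and 10 of 12 against scramble. Their sums were 1011 to 1060 CPM with 1C-MIM, 1781 to 1988 with normal medium and 1723 to 1949 with scramble. The part of either in the results below was not tested.

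Promoter sequence is shown for 3 members the results turn on: Kdm3a, an H3K9 eraser, and Kmt2d, an H3K4 writer, which had the largest fall and the largest rise of called members against control, and Ezh2, the H3K27 writer that fell. Each sequence is the 250 bases before the annotated start of a RefSeq transcript, on the gene's strand, which is the minus strand for all 3, in build GRCm38.p6. They lie at chr6:71632918-71633167 for Kdm3a, chr15:98871206-98871455 for Kmt2d and chr6:47595031-47595280 for Ezh2. The capitals mark ACGTG or GCGTG on either strand, the core letters of the element that hypoxia-inducible factors bind.
Kdm3a: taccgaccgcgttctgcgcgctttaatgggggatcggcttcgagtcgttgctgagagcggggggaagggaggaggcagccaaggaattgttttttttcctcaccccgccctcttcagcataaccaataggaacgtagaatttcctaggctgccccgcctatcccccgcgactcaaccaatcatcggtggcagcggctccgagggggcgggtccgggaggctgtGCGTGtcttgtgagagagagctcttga
Kmt2d: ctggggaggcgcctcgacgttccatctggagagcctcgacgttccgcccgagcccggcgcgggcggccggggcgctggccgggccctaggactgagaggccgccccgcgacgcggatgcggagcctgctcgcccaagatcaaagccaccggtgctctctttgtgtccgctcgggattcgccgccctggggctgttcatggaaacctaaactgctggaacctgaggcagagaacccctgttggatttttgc
Ezh2: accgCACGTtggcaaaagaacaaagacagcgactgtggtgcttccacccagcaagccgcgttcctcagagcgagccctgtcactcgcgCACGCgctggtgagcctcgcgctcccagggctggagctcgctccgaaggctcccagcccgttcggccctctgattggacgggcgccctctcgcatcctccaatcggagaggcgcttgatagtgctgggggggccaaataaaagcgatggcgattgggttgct
Kdm3a holds 1 match, GCGTG on the gene's strand, starting 27 bases before the start; Ezh2 holds ACGTG and GCGTG on the opposite strand, starting 246 and 162 bases before it; Kmt2d holds none. Such letters are common: 38.6% of all 32851 promoter windows of that length held at least 1 match, as did 54.5% of the windows of tested genes and 27 of the 42 windows of members (64.3%). Windows were found for 33 of the 46 members, and Kdm3a has 3, of which 1 holds a match. A match is a description of letters, not a bound site.

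Levels can be compared between genes on the authors' TPM values, which are scaled to transcript length and to the library. The highest mean levels over the 9 libraries belonged to Ehmt2 (63.5 TPM), which methylates H3K9 with Ehmt1, and to Kdm1a (61.1 TPM), the flavin-dependent H3K4 eraser LSD1. Setd3 (49.2 TPM), an actin histidine methyltransferase of the SET family, Smyd2 (43.5 TPM), a lysine methyltransferase of histone and cytoplasmic proteins, and Setd7 (35.6 TPM), an H3K4 monomethyltransferase, followed. The lowest was Suv39h2 (2.69 TPM), an enzyme of pericentric H3K9 methylation, then Setdb2 (4.99 TPM), Smyd3 (5.03 TPM), Kdm2b (6.47 TPM) and Phf8 (6.77 TPM). No member was silent.

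**Figure D1:**
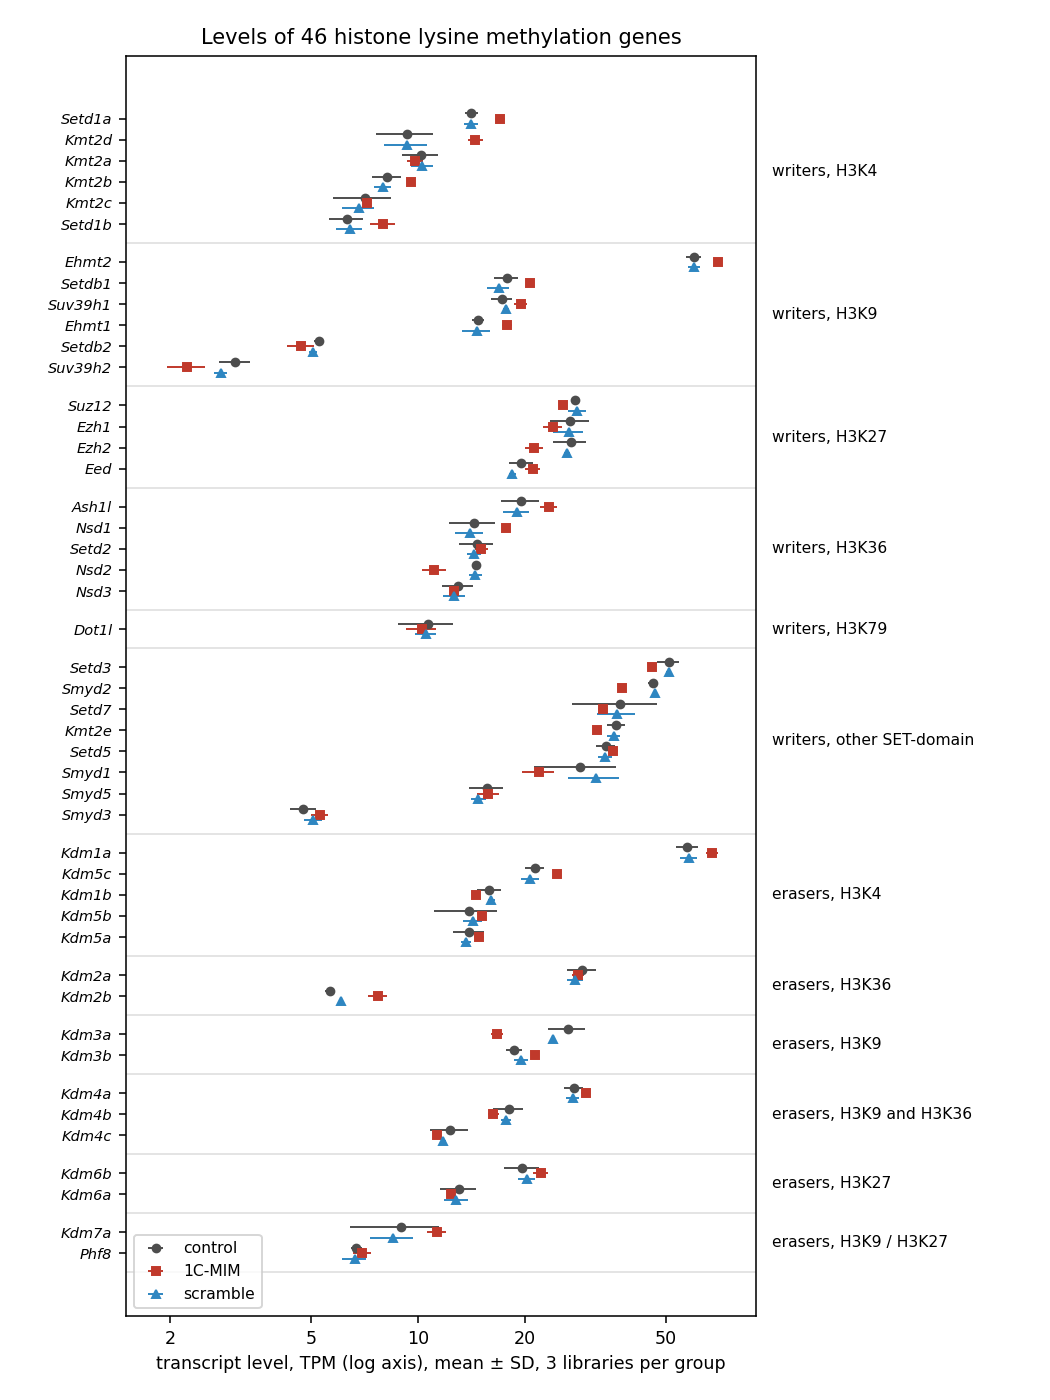
Mean transcript level of the 46 members in each group, in TPM on a log axis, with bars for the SD over 3 libraries (circles control, squares 1C-MIM, triangles scramble), ordered by role and target lysine. Ehmt2 and Kdm1a lie highest and Suv39h2 lowest in all 3 groups.

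Ehmt2 was measured at 177, 174 and 170 CPM in the control libraries, 198, 203 and 203 in 1C-MIM and 177, 178 and 169 in scramble. The 1C-MIM libraries lay above all others, by a log2 fold change of 0.21 ± 0.04 (SE, adjusted p = 0.0017) against control. Suv39h2, at the low end, gave 8.31, 10.7 and 9.31 CPM in control, 7.61, 6.04 and 6.70 in 1C-MIM and 8.61, 8.26 and 8.86 in scramble. Here the 1C-MIM libraries lay below the others without overlap, by -0.48 ± 0.12 against control (adjusted p = 0.0059) and -0.34 ± 0.12 against scramble (adjusted p = 0.035). The call against scramble was lost when any of 5 single libraries was left out, 1C-MIM replicates 2 and 3 and each scramble library, at -0.36 to -0.26.

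Summed over the 30 writers, the control level was 615 ± 43 TPM (SD, n = 3), beside 611 ± 13 with 1C-MIM and 612 ± 30 with scramble. The 16 erasers summed to 309 ± 26, 321 ± 3.0 and 306 ± 13 TPM. These totals overlapped between groups, while the sums by target lysine did not all do so. The 6 H3K4 writers summed to 51.1 to 62.4 TPM in control, 64.2 to 68.3 in 1C-MIM and 51.7 to 59.8 in scramble, with 1C-MIM above both. Sums over the 6 H3K9 writers were 116 to 122 TPM in control, 134 to 137 in 1C-MIM and 114 to 122 in scramble. For the 4 H3K27 genes the order was the other way, with 101 ± 1.4 TPM (SD, n = 3) for control, 92.1 ± 2.9 for 1C-MIM and 99.7 ± 2.8 for scramble. Each 1C-MIM library lay below the 6 others. Eraser sums moved too. Those for H3K4 were highest with 1C-MIM (137 ± 2.8 TPM, control 123 ± 7.9, scramble 123 ± 5.4). Those for H3K9, which add Kdm3a and Kdm3b alone, were lowest with it (38.2 ± 0.25 TPM, control 45.1 ± 4.1, scramble 43.6 ± 1.1). Within that sum Kdm3a was lower with 1C-MIM than in control (16.71 ± 0.65 against 26.45 ± 3.1 TPM) and Kdm3b higher (21.44 ± 0.51 against 18.68 ± 1.0). The sum of the other SET-domain genes was also lowest with 1C-MIM (227 ± 4.3 TPM, control 254 ± 25, scramble 255 ± 14). None of these group sums overlapped the 6 other libraries, and sums of the remaining groups overlapped control.

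The first comparison sets 1C-MIM against control. Of the 46 members 13 rose and 8 fell, a call being an adjusted p below 0.05 in edgeR's quasi-likelihood test over all tested genes, and 25 were not called. This share of 45.7% lies beside 47.3% of all 14006 tested genes, of which 22.9% were called higher and 24.3% lower. The members' log2 fold changes ran from -0.68 to 0.63 with a median of 0.03, against a median of -0.01 over all tested genes, and 23 of 46 had libraries that did not overlap between the groups, against 55.5% of tested genes. Only Kdm3a and Kmt2d were called with an absolute log2 fold change of at least 0.5, a size reached by 19.4% of tested genes. Scaling by library size alone gave 13 members higher and 13 lower, beside 2606 higher (18.6%) and 3963 lower (28.3%) of the 14006 tested genes. With control replicate 1 left out, 17 members rose and 9 fell, beside 3540 and 3655 of 14123 tested genes. With every library numbered 1 left out, 18 members rose and 12 fell, beside 3928 and 3990 of 14020.

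Against scramble, 12 members rose and 9 fell, again 45.7% of the 46, beside 46% of all tested genes, 22.9% higher and 23.2% lower. The range was -0.55 to 0.62 and the median 0.05, and libraries of 31 members did not overlap, against 59.5% of tested genes. The 1C-MIM libraries serve in both comparisons, which are therefore not independent. Side by side, 12 members were called higher and 7 lower against both. A further 2 were called against control only (Kdm3b and Kdm4b), 2 against scramble only (Smyd1 and Suz12), and 23 against neither. The share of all tested genes called in the same direction against both was not counted, so these counts have no background. Counts for smaller groups below stand beside 47.3% of all tested genes called against control and 46% against scramble.

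**Figure D2:**
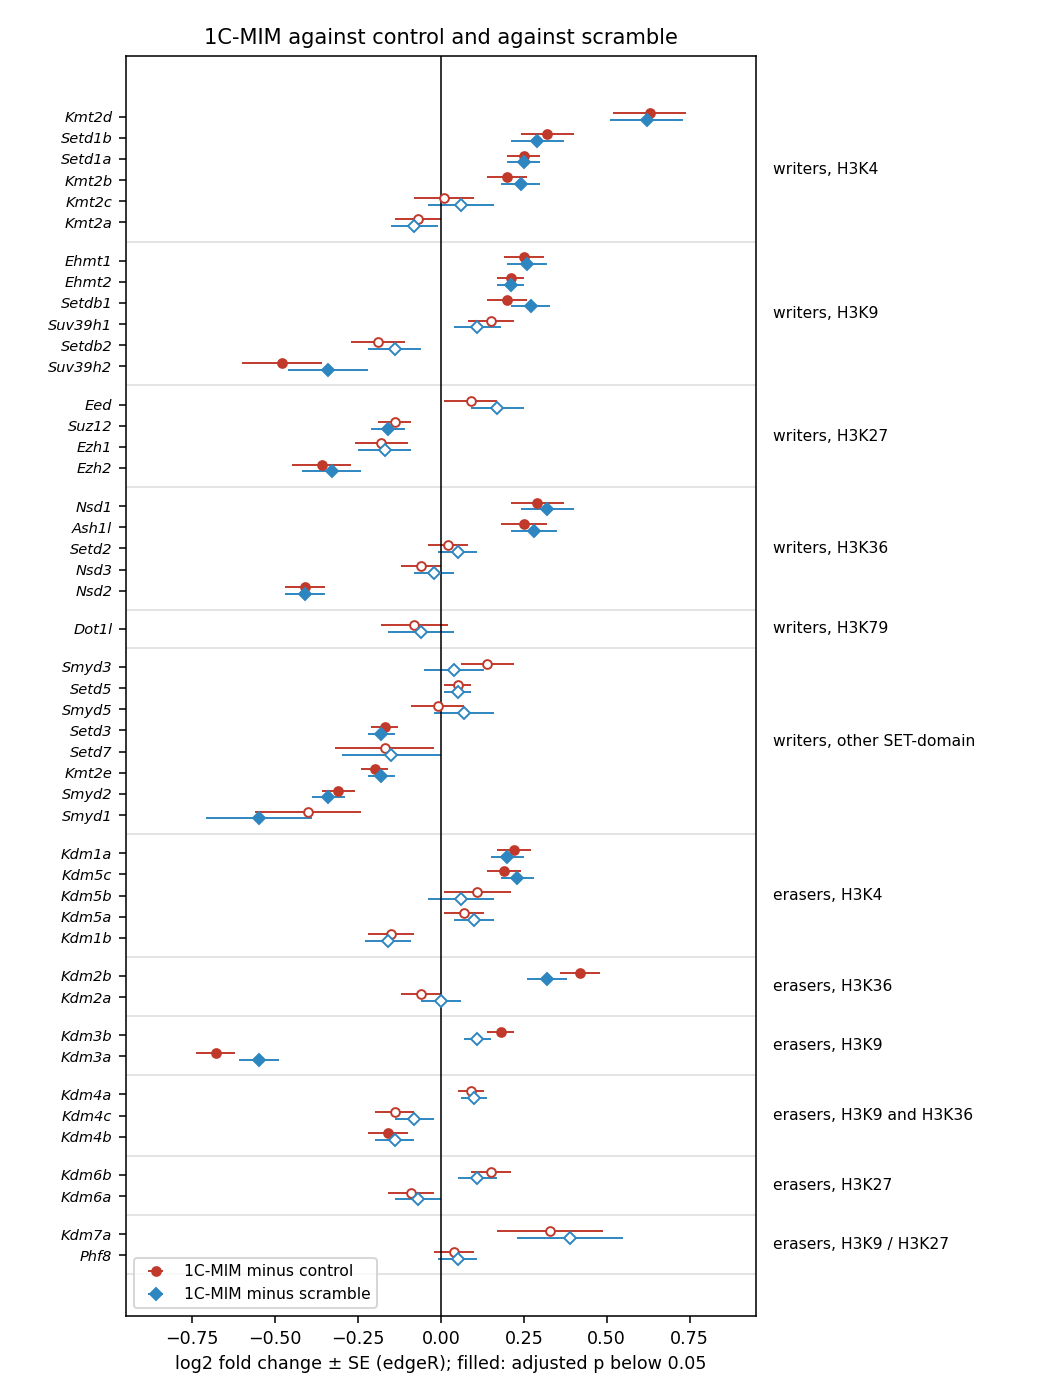
Log2 fold change ± SE from edgeR for the 46 members in 1C-MIM against control (circles) and against scramble (diamonds), filled where the adjusted p is below 0.05, grouped by role and target lysine. Kmt2d lies farthest right at 0.63 and Kdm3a farthest left at -0.68 against control, and most filled points lie within 0.5 of 0.

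Scramble against control called no member and no gene at all by edgeR (percent called 0). An unadjusted p below 0.05 in edgeR's test was reached by 482 of the 14006 tested genes and 0 of the 46 members. For all tested genes this is a smaller share than the 0.05 that such a threshold lets through without any effect. DESeq2 called 4 genes and 0 members. Member log2 fold changes ran from -0.14 to 0.15, and libraries of 2 members did not overlap, beside 9.09% of tested genes. Without the 3 libraries numbered 1, 96 genes were called, among them 1 member, Smyd1, at 0.22.

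Of the 6 genes grouped as H3K4 writers, 4 rose against both groups and none fell. Setd7, grouped with the other SET-domain genes, was called in neither comparison. Kmt2d, which with its paralogue Kmt2c methylates enhancer nucleosomes, was measured at 155, 120 and 122 CPM in control, 210, 194 and 210 in 1C-MIM and 152, 119 and 129 in scramble. All 3 libraries of 1C-MIM lay above the 6 others, and replicate 1 was the highest in both of the other groups. The log2 fold change was 0.63 ± 0.11 against control (adjusted p = 0.0012) and 0.62 ± 0.11 against scramble (adjusted p = 0.0013). Without control replicate 1 it was 0.75 against control. Setd1a and Setd1b, the catalytic subunits of the complexes that place most H3K4 trimethylation, rose by 0.25 ± 0.05 and 0.32 ± 0.08 against control. Kmt2b, a promoter-bound writer, rose by 0.20 ± 0.06, a call lost without control replicate 2 (0.18) or 3 (0.17). Kmt2a and Kmt2c were not called in either comparison: Kmt2c gave 99.7, 75.8 and 80.8 CPM in control against 85.7, 86.3 and 86.5 in 1C-MIM, and control replicate 1 was the highest of all. Without the 3 libraries numbered 1, Kmt2c was called in both comparisons.

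These writers work in COMPASS complexes, of which 14 partners were listed. Against control 6 rose and 2 fell. Hcfc1, a scaffold of the SETD1 and KMT2B complexes, went from 204 ± 5.8 CPM (SD, n = 3) to 249 ± 14, a log2 fold change of 0.29 ± 0.05 (adjusted p = 0.00083). Ash2l, a core subunit, rose by 0.24 ± 0.04, and Pagr1a, a subunit of the KMT2C and KMT2D complexes, by 0.25 ± 0.06. Psip1, which ties KMT2A complexes to H3K36-methylated chromatin, fell by 0.30 ± 0.06 on the log2 scale. The core subunits Wdr5, Rbbp5 and Dpy30 were not called.

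Of the 6 H3K9 writers, 3 rose against both groups and 1, Suv39h2, fell. Beside Ehmt2, its partner Ehmt1 rose by 0.25 ± 0.06 against control (adjusted p = 0.0038) and 0.26 ± 0.06 against scramble. Setdb1, which silences repeats with TRIM28, rose by 0.20 ± 0.06 and 0.27 ± 0.06, and the call against control was lost without control replicate 2 (0.15). Suv39h1, the paralogue of Suv39h2, was not called: it gave 34.5, 42.2 and 39.8 CPM in control and 43.9, 41.3 and 44.4 in 1C-MIM, which overlap; it was called against control without control replicate 2. Setdb2 was not called either; among fits without a single library it was called against control without 1C-MIM replicate 1.

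Of 13 tested H3K9 partners and readers, 4 rose and 1 fell against control. Wiz, a zinc finger protein that holds the EHMT1-EHMT2 dimer at chromatin, rose by 0.38 ± 0.05 (45.8 ± 1.2 to 59.6 ± 2.0 CPM, SD, n = 3, adjusted p = 0.00016). The H3K27 and H3K9 reader Cdyl rose by 0.35 ± 0.07 and Atf7ip, a partner of SETDB1, by 0.23 ± 0.05. Uhrf1, which reads H3K9 methylation at replicating DNA, fell by 0.77 ± 0.11 on the log2 scale (88.7 ± 14 to 52.0 ± 4.6 CPM).

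The H3K27 writers make up PRC2, in which Ezh2 or Ezh1 is the enzyme and Eed and Suz12 are needed for activity. Ezh2, known from dividing cells, gave 43.5, 54.4 and 56.5 CPM in control, 42.1, 39.8 and 38.1 in 1C-MIM and 49.4, 49.7 and 51.4 in scramble. The 1C-MIM libraries lay below the 6 others, and control replicate 1 was the nearest to them. The fall was -0.36 ± 0.09 against control (adjusted p = 0.0055) and -0.33 ± 0.09 against scramble (adjusted p = 0.01). Mitosis marker sums moved the same way and were lowest, among the controls, in replicate 1; their part was not tested.

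Ezh1, the paralogue known from resting cells, gave 89.6, 79.5 and 74.5 CPM in control, 75.8, 71.6 and 67.4 in 1C-MIM and 88.2, 76.4 and 77.5 in scramble. It was not called, at -0.18 ± 0.08 against control (adjusted p = 0.081) and -0.17 ± 0.08 against scramble (adjusted p = 0.096), and was called without control replicate 3 (-0.24 against control) and without control replicate 1 (-0.18 against scramble). The Ezh1 to Ezh2 count ratio was 2.06, 1.46 and 1.32 in control, 1.80, 1.80 and 1.77 in 1C-MIM and 1.79, 1.54 and 1.51 in scramble. Control replicate 1 lay above the 1C-MIM libraries and the other 2 controls below them. The mean log2 ratio was 0.18 higher in 1C-MIM than in control (exact permutation test, two-sided, p = 0.4) and 0.16 higher than in scramble (p = 0.2), where 3 against 3 libraries cannot go below 0.1. Per length the 2 genes lay close together, at 25.9 TPM for Ezh1 and 24.9 TPM for Ezh2.

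Suz12 gave -0.14 ± 0.05 against control (adjusted p = 0.058) and fell against scramble by -0.16 ± 0.05 (adjusted p = 0.035). That call was lost when 1C-MIM replicate 1, 2 or 3 or scramble replicate 1 or 2 was left out, at -0.18 to -0.11, and the value against control was called without control replicate 1 (-0.17). Eed was not called in either comparison, but was called against scramble without control replicate 1 and in a fit of the compared groups only. Of 8 tested PRC2 partners, 1 rose and 3 fell against control. The accessory subunits Phf19 and Phf1 fell by 0.70 ± 0.16 and 0.33 ± 0.07 on the log2 scale. The histone chaperone Rbbp7 fell by 0.21 ± 0.06 and its paralogue Rbbp4 rose by 0.19 ± 0.04.

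Of the 5 H3K36 writers, 2 rose and 1 fell in both comparisons. Nsd2, which places H3K36 dimethylation, was measured at 70.3, 72.3 and 75.4 CPM in control, 59.1, 53.2 and 51.9 in 1C-MIM and 73.8, 73.8 and 70.0 in scramble; its library values, like those of most further members below, were chosen for printing after they had been seen. The 1C-MIM libraries lay below the others without overlap, at -0.41 ± 0.06 against each group (adjusted p = 0.00021 and 0.00023). Its paralogue Nsd1 rose by 0.29 ± 0.08 against control and 0.32 ± 0.08 against scramble, the first call being lost without control replicate 2 (0.23). Ash1l, a writer that opposes Polycomb, rose by 0.25 ± 0.07 and 0.28 ± 0.07. Its call against control was lost without control replicate 2 (0.20) or 3 (0.21) or 1C-MIM replicate 1 (0.23) or 2 (0.22). Setd2, the enzyme of H3K36 trimethylation, was not called, with 95.7, 86.0 and 82.8 CPM in control and 93.0, 89.6 and 86.5 in 1C-MIM.

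Nsd3 was not called by its long transcript, which gave 99.8, 90.5 and 88.4 CPM in control, 90.2, 91.2 and 86.8 in 1C-MIM and 96.4, 88.1 and 87.8 in scramble. A second listed transcript is 0.365 times as long; it was singled out after its values had been seen and was not tested. It gave 62.7, 61.0 and 60.1 CPM in control, 71.9, 70.2 and 67.7 in 1C-MIM and 63.0, 60.0 and 62.6 in scramble. The short transcript's counts were 0.628, 0.674 and 0.680 of the long one's in control, 0.796, 0.770 and 0.780 in 1C-MIM and 0.653, 0.681 and 0.714 in scramble. Both the level and the ratio of 1C-MIM lay above the 6 other libraries. Reads in exons that the transcripts share were counted under each, so the ratio is not a ratio of molecules.

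**Figure D3:**
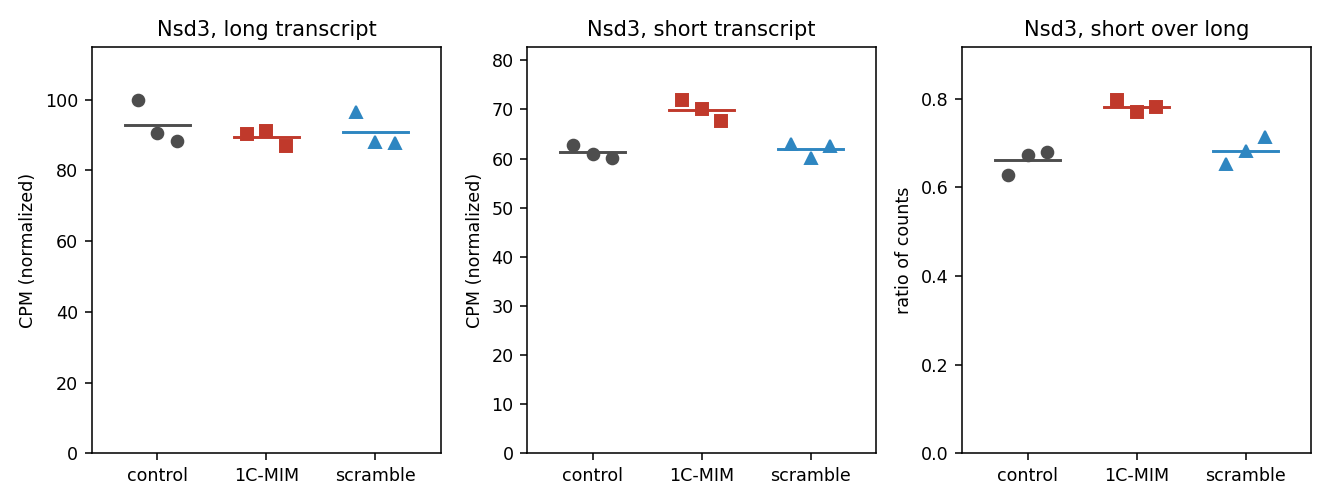
Nsd3 in each of the 9 libraries: CPM of the long transcript, CPM of the short transcript, and the ratio of their counts, with bars at group means and all axes from 0. The short transcript lies at 67.7 CPM or above in 1C-MIM and at 63.0 or below elsewhere, while the long transcript overlaps between groups.

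Dot1l, the only H3K79 writer, gave 50.9, 40.4 and 39.8 CPM in control, 45.4, 37.6 and 41.4 in 1C-MIM and 45.6, 42.6 and 41.3 in scramble. These overlap, and it was not called. Of 14 partners and readers of DOT1L and H3K36 methylation, 4 rose and 4 fell against control. Brd1, an acetyltransferase subunit with an H3K36-binding domain, rose by 0.31 ± 0.04, and the elongation factor Supt6, which recruits SETD2, by 0.34 ± 0.07. Mllt10 and Mllt3, subunits of DOT1L complexes, fell by 0.34 ± 0.06 and 0.33 ± 0.06 on the log2 scale.

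Among the 8 other SET-domain genes none rose, 3 fell against control and 4 against scramble. Smyd2, which also methylates sarcomere-associated Hsp90, gave 52.6, 55.4 and 51.9 CPM in control, 43.5, 42.8 and 42.3 in 1C-MIM and 53.0, 54.3 and 55.1 in scramble. The groups did not overlap, with a fall of -0.31 ± 0.05 against control (adjusted p = 0.00028) and -0.34 ± 0.05 against scramble (adjusted p = 0.00019). Kmt2e, whose SET domain is held to be inactive, fell by 0.20 ± 0.04 and 0.18 ± 0.04 on the log2 scale, and Setd3 by 0.17 ± 0.04 and 0.18 ± 0.04. Setd5, Smyd3 and Smyd5 were not called in either comparison.

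Smyd1, a myosin chaperone and methyltransferase of striated muscle, gave 87.0, 63.0 and 57.8 CPM in control, 58.4, 50.1 and 48.8 in 1C-MIM and 89.7, 68.3 and 72.7 in scramble. Replicate 1 was the highest in each group; 1C-MIM lay below scramble without overlap and overlapped control by 1 library. The log2 fold change was -0.40 ± 0.16 against control (adjusted p = 0.073) and -0.55 ± 0.16 against scramble (adjusted p = 0.022). The call against scramble was lost without scramble replicate 1 (-0.43) or 1C-MIM replicate 2 (-0.52) or 3 (-0.50), and the value against control was called without control replicate 3 (-0.52). Of the 12 muscle markers 3 were called higher and none lower in each comparison. Fold changes, called or not, were positive for 10 and negative for 2 against control, and positive for 11 and negative for 1 against scramble. Myog, a myogenic regulator, rose by 1.22 ± 0.15 against control. Myh8 was not called, at -1.16 ± 0.50 against control (adjusted p = 0.1) and -1.11 ± 0.50 against scramble (adjusted p = 0.11). Its 1C-MIM libraries, at 70.0, 54.4 and 52.9 CPM, lay below the 6 others, of which the lowest had 70.8.

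Setd7, a partner of MyoD, gave 249, 170 and 169 CPM in control, 176, 178 and 168 in 1C-MIM and 216, 175 and 189 in scramble. Control replicate 1 stood far above the rest, and scramble replicate 1 next. The value against control was -0.17 ± 0.15 (adjusted p = 0.36) and became 0.03 without control replicate 1. Against the mean of the other 2 controls, control replicate 1 was higher by a log2 difference of 0.55 for Setd7, 0.53 for Smyd1 and 0.57 for Kdm7a, and lower by -0.35 for Ezh2. Over the 46 members this difference had a median of 0.09, with 7 members (15.2%) at 0.3 or above and 1 at -0.3 or below. Over 14003 genes, 14.9% were at 0.3 or above and 9.94% at -0.3 or below.

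**Figure D4:**
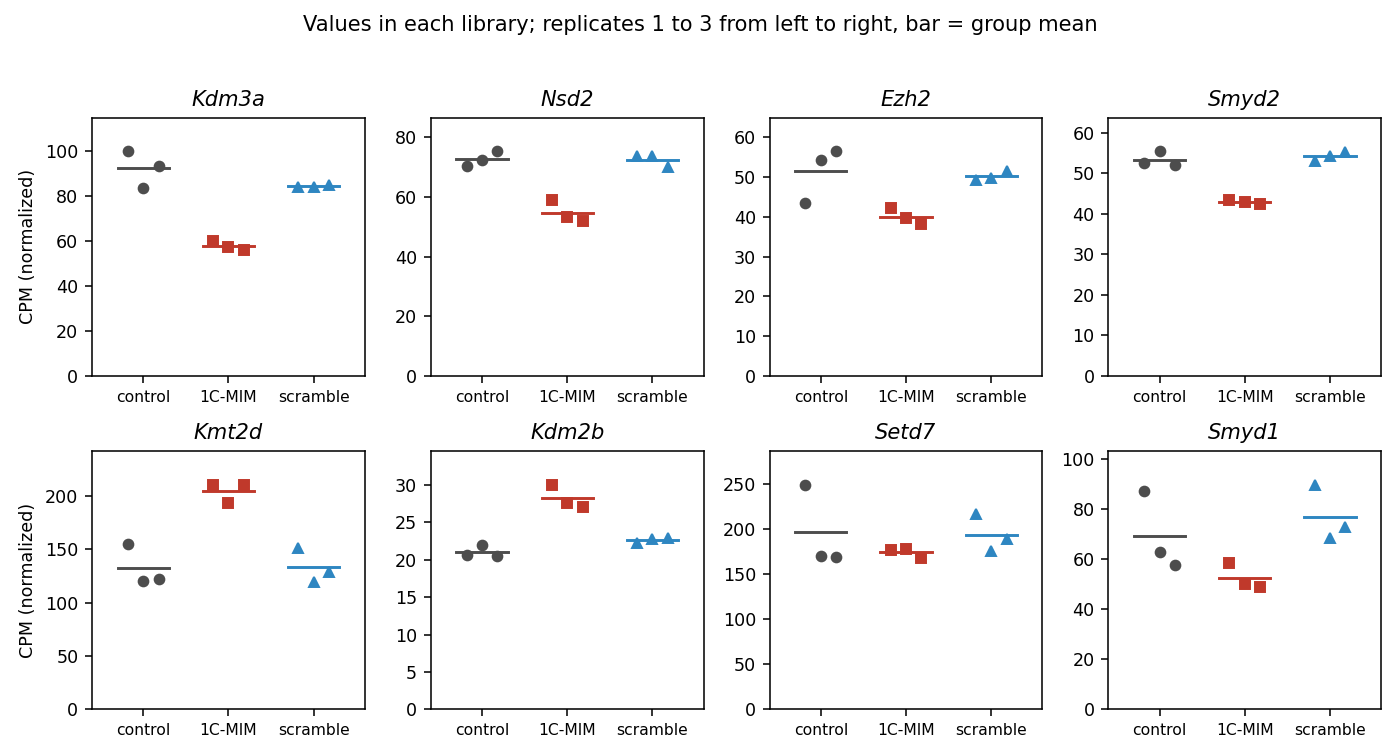
CPM on the normalized library size for 8 members in each of the 9 libraries, replicates 1 to 3 from left to right in each group, with bars at group means and axes from 0. Kdm3a, Nsd2, Ezh2 and Smyd2 lie lowest in 1C-MIM, Kmt2d and Kdm2b highest, and replicate 1 of control stands above the other controls for Setd7 and Smyd1.

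Of the erasers, 4 of 16 rose and 2 fell against control, and 3 rose and 1 fell against scramble. These shares of 37.5% and 25% lay below those of all tested genes, while the writers' 50% and 56.7% lay above. The differences were not tested. Among the 5 H3K4 erasers 2 rose in both comparisons. Kdm1a went from 128, 118 and 127 CPM in control to 145, 139 and 150 in 1C-MIM, with 132, 126 and 122 in scramble. The 1C-MIM libraries lay above the others, at 0.22 ± 0.05 against control (adjusted p = 0.005) and 0.20 ± 0.05 against scramble (adjusted p = 0.0089). Kdm5c, a JmjC eraser of H3K4 trimethylation, rose by 0.19 ± 0.05 and 0.23 ± 0.05. Kdm1b, Kdm5a and Kdm5b were not called in either; all 3 were called against control without control replicate 1, and Kdm1b also against scramble.

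KDM1A acts with CoREST proteins and histone deacetylases. Of 12 such partners, 1 rose and 3 fell against control. The CoREST paralogues Rcor2 and Rcor3 fell by 0.69 ± 0.06 and 0.61 ± 0.06 on the log2 scale (adjusted p = 1.2e-05 and 2.4e-05), from 23.2 ± 1.0 to 14.4 ± 0.50 CPM and from 36.9 ± 1.0 to 24.2 ± 1.2 CPM (SD, n = 3). Rcor1 was not called, at 36.5 ± 1.8 CPM in control and 35.5 ± 0.39 in 1C-MIM. Of further subunits of these complexes, Gse1 fell by 0.24 ± 0.07 and Hmg20b rose by 0.16 ± 0.06 (adjusted p = 0.046).

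Of the 2 H3K36 erasers, Kdm2b rose and Kdm2a was not called. Kdm2b, which also brings Polycomb to CpG islands, gave 20.6, 22.0 and 20.5 CPM in control, 30.1, 27.6 and 27.1 in 1C-MIM and 22.2, 22.8 and 22.9 in scramble. All 1C-MIM libraries lay above the others, at 0.42 ± 0.06 against control (adjusted p = 0.00023) and 0.32 ± 0.06 against scramble (adjusted p = 0.0015). Kdm2a gave 162, 144 and 150 CPM in control and 147, 151 and 140 in 1C-MIM, which overlap.

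The 2 H3K9 erasers of the KDM3 pair differed in sign. Kdm3a, which removes H3K9 mono- and dimethylation and is known as a target of hypoxia-inducible factors, gave 99.9, 83.7 and 93.5 CPM in control, 59.9, 57.2 and 56.0 in 1C-MIM and 84.0, 84.0 and 85.0 in scramble. The 1C-MIM libraries lay far below the 6 others. The log2 fold change was -0.68 ± 0.06 against control (adjusted p = 1.2e-05) and -0.55 ± 0.06 against scramble (adjusted p = 5.5e-05), the lowest of the 46 members in the first and level with Smyd1 in the second. The sum of the hypoxia targets was lower in the same libraries, and its part was not tested. Kdm3b rose against control by 0.18 ± 0.04 (98.1, 94.2 and 94.7 CPM to 105, 108 and 112) and was not called against scramble at 0.11 ± 0.04 (adjusted p = 0.059), where it was called without control replicate 1 (0.11) or scramble replicate 1 (0.13).

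Of the 3 KDM4 erasers of H3K9 and H3K36 trimethylation, Kdm4b was called lower against control at -0.16 ± 0.06, with an adjusted p that rounds to 0.05, just under the threshold, and not against scramble (-0.14 ± 0.06, adjusted p = 0.084), where it was called without control replicate 1 or 2 (-0.14 in each). The call against control was lost in 13 of 18 other settings, at -0.23 to -0.10 over all of them, including 8 of the 9 that left out a single library. Its library values overlapped, at 62.4, 54.8 and 62.3 CPM in control and 51.2, 55.5 and 54.0 in 1C-MIM. Kdm4a and Kdm4c were not called in either comparison, though Kdm4c was called against control without control replicate 2 and with scaling by library size alone. The H3K27 erasers Kdm6a and Kdm6b were not called. Kdm6b, known to be induced in inflammation, gave 103, 89.5 and 90.5 CPM in control and 109, 105 and 100 in 1C-MIM; it was called against control without control replicate 1.

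Kdm7a and Phf8, JmjC erasers of H3K9 and H3K27 dimethylation with a PHD finger, were not called in either comparison. Kdm7a gave 78.3, 56.1 and 49.2 CPM in control, 71.0, 80.7 and 78.4 in 1C-MIM and 67.3, 53.8 and 54.6 in scramble. Control replicate 1 lay among the 1C-MIM libraries and the other 2 controls below them, so the value was 0.33 ± 0.16 against control (adjusted p = 0.13) and 0.54, called, without that library. Against scramble it was 0.39 ± 0.16 (adjusted p = 0.081), with no overlap, and was called without control replicate 1 or 3 (0.39 in each). Phf8 stayed between 29.0 and 33.0 CPM in all 9 libraries.

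The 23 members called in neither comparison comprised 13 writers and 10 erasers. Their log2 fold changes against control ran from -0.19 to 0.33. Approximate ranges, built from the SE as if the values were normally distributed, reached from -0.46 to 0.65 at the extremes. These ranges are narrower than 95% intervals of the test would be. For Kdm7a the range of 0.01 to 0.65 left out 0, at an unadjusted p of 0.076 in edgeR's quasi-likelihood test. Ranges of Ezh1, Setdb2, Suv39h1, Kdm1b, Kdm4c and Kdm6b left out 0 as well, at unadjusted p of 0.031 to 0.063 in that test. Changes as large as the extremes above, or somewhat larger, are therefore not excluded for the noisiest of the 23 members. Several members share exon positions with another gene, in GENCODE M21 on GRCm38: Setd1a with a same-strand model over 53.3% of its exon bases, Smyd2 with an antisense RNA over 39.2%, Kmt2e with Srpk2 over 13.3%, Kdm2b with Rnf34 over 10.7%, Kdm1b with Dek over 9.99% and Suv39h2 with Dclre1c over 8.25%, the last 4 on opposite strands. The sources used here do not say if strand was used in counting, so reads of those stretches cannot be assigned to 1 gene.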

How the data were processed

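Per the labels' protocols, RNA of 9 libraries was isolated with an RNeasy kit and sequenced after SMARTer mRNA library preparation. Per the submitters' processing notes, which give no roles, the tools included STAR, featureCounts and Subread 2.0.1, Salmon 1.5.2 and StringTie 2.2.1, with build GRCm39. Per the file headers, the deposited tables give each of 33984 RefSeq transcripts a count, an FPKM and a TPM. The authors' counts are whole numbers and not normalized, the authors' FPKM were used only for relative transcript length, and the authors' TPM for levels between genes.

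Each symbol was represented by its transcript with the highest mean count; 16 members had more than 1. Nsd2 and Nsd3 were matched by older symbols. Counts were tested with edgeR 4.0.16 (R 4.3.3): TMM, filterByExpr (14006 genes), robust quasi-likelihood fits of all 9 libraries and Benjamini-Hochberg adjustment, called below 0.05. CPM use the TMM-normalized library size, and SE derive from the fitted F. Counts were also simulated for the control and 1C-MIM groups alone (13785 genes, 50 changed at each size). From these edgeR recovered 20% of 1.25-fold, 66% of 1.5-fold, 94% of 2-fold and 96% of 4-fold changes, with 17 false calls among 155. Far fewer genes changed there than were called in the data (6621 of 14006), which makes the adjusted threshold stricter. The recovery therefore does not carry over to the main fit.

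The members and lists were chosen with earlier results of these data known. Library values were printed for members called with an absolute log2 fold change of at least 0.5, the highest and lowest by TPM, Ezh1, Ezh2 and Smyd1, and for others picked after their values were seen; up to 4 partners per list with the smallest p are named, and further names were picked after their values were seen. Alternatives were DESeq2 1.42.0, RLE or library size scaling, other filters, the compared groups alone, a replicate block, omitted libraries, the mean over transcripts and an adjusted p below 0.01. No pair of libraries within a group matched within sampling noise (chi-square over degrees of freedom 3.30 to 48.2). Control and scramble libraries with the same number deviated together (correlations 0.48, 0.21 and 0.17 across genes), and 4 of 6 correlated best with their own number. The labels do not say what the numbers mean. The main fits did not use them, and fits with the number as a block are given below.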

Additional observations from a re-analysis of the deposited data

How the results depend on the processing

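Over 18 alternatives other than the stricter threshold, 16 of the 21 member calls against control and 18 of the 21 against scramble were kept in every setting. Scaling by library size alone raised the members called lower against control from 8 to 13, while the share of all tested genes went from 24.3% to 28.3%. An adjusted p below 0.01 reduced the members called lower against scramble from 9 to 5, while the share of all tested genes went from 23.2% to 16.1%. In scramble against control, DESeq2 called 4 genes, the fit without control replicate 1 called 3, and the fit without the 3 libraries numbered 1 called 96 genes and 1 member. Leaving out single libraries, genes called there ranged from 0 to 3. Leaving out single libraries, Setd7 against control ranged from -0.27 to 0.03. It turned from -0.17 against control to 0.03 without control replicate 1 and 0.02 without the 3 libraries numbered 1; the cause was not tested. The median log2 fold change of all genes against control was -0.01, and -0.06 with library size alone.

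With the replicate number as a block, 14 members were higher and 11 lower against control, 13 and 11 against scramble, and none in scramble against control; it moved the calls against control by gaining Ezh1, Kdm6b, Smyd1 and Suz12, and against scramble by gaining Ezh1, Kdm1b and Kdm3b. For 1C-MIM, deviations of same-numbered libraries correlated at 0.19, 0.08 and 0.10 with control and 0.15, 0.04 and 0.03 with scramble. Number by number, these lay below the correlations between control and scramble. Of 6 libraries, 4 and 3 correlated best with their own number, beside 4 between control and scramble. The simulated counts held far fewer changed genes and fewer libraries than the main fit, so they do not give its recovery of small changes. With 3 libraries a group, members that were not called cannot be taken as unchanged.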

Other observations

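Other lysine methyltransferases and other JmjC proteins, outside the 46 genes, were measured in the same libraries. Of 15 tested methyltransferases, 3 rose and 3 fell against control. Kmt5a, the writer of H4K20 monomethylation, rose from 99.4 ± 3.8 CPM (SD, n = 3) to 119 ± 6.7, a log2 fold change of 0.26 ± 0.05 (adjusted p = 0.0026), and was not called against scramble (0.13 ± 0.05, adjusted p = 0.062). Setd6 rose by 0.36 ± 0.08. Smyd4, a relative of Smyd1, fell by 0.44 ± 0.07 on the log2 scale, and Eef1akmt2, which methylates a translation elongation factor, by 0.54 ± 0.12.

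Of 12 tested JmjC proteins, 3 rose and 2 fell against control. Hr, a relative of Kdm3a known for its role in hair follicles, gave 34.0, 35.5 and 43.2 CPM in control, 11.9, 9.32 and 9.32 in 1C-MIM and 40.2, 37.5 and 35.7 in scramble. The 1C-MIM libraries lay below the others without overlap, by -1.88 ± 0.12 against control and -1.89 ± 0.12 against scramble (adjusted p = 1.5e-06 and 1.8e-06). Jmjd1c, a further relative of Kdm3a, fell by 0.32 ± 0.05 on the log2 scale against control, from 152 ± 8.0 to 122 ± 0.74 CPM. Phf2, a relative of Phf8, rose by 0.25 ± 0.04, from 85.9 ± 2.8 to 102 ± 2.7 CPM. The part of the lower mitosis and hypoxia marker sums in these values was not tested.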
